A study of Oryzias latipes with 6 samples.

Results

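The enzymes of glycolysis and the tricarboxylic acid (TCA) cycle were followed through 14 clusters of brain nuclei of the Japanese medaka, Oryzias latipes. A gene was taken as a member by its name alone, from symbols such as gapdh, aldoc, eno1, pkm, pfk, pgk1, hk1, pdha, mdh, idh3, ogdh, sucl, fh and cs in the deposited tables. The rule took 60 of 24365 genes and used no measured value. Of the 60, 32 encode glycolytic enzymes or lactate dehydrogenases, and 6 encode the bifunctional PFKFB regulators. A further 20 encode pyruvate dehydrogenase subunits or TCA cycle enzymes, counting cytosolic forms such as mdh1. The names of 2 further genes match although they encode no enzyme of these pathways, namely the mitochondrial phosphatase gene pgam5 and the cell cycle kinase gene pkmyt1.

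The study asked what parental exposure to the combustion product benzo[a]pyrene (BaP) leaves in the brains of offspring that never met the chemical. Parents of the control lineage were kept in solvent for 21 days, and parents of the BaP lineage in BaP at 1 µg/L for 21 days. All brains came from F1 males 6 months old that had been raised in clean water, with 3 fish in each lineage and 1 library for each fish. All libraries shared 1 sequencing batch, and the labels name no strain and do not say whether fish of a lineage shared parents. Frozen whole brains gave nuclei for droplet-based sequencing of the 3′ ends of transcripts, and the authors compared the lineages within each cluster. The tables hold no value for a single fish, so no spread between fish can be given for any number here. The deposited p-values appear to treat nuclei as the replicates, so that differences among fish of a lineage would not enter them.

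Glycolysis splits glucose into pyruvate in the cytosol. Hexokinase traps the sugar, phosphofructokinase commits it, aldolase cleaves it, and glyceraldehyde-3-phosphate dehydrogenase (GAPDH), enolase and pyruvate kinase act in the later steps that pay back ATP and NADH. Pyruvate becomes lactate through lactate dehydrogenase, or acetyl-CoA through the pyruvate dehydrogenase complex, which feeds the TCA cycle in the mitochondrion. The adult brain lives mainly on glucose, and astroglia are known for active glycolysis, while neurons lean on mitochondrial oxidation. In the mammalian brain, aldolase C marks Purkinje cells and astrocytes, and enolase 2 marks neurons.

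Calculated from the authors' deposited tables, the 14 clusters hold 7512 nuclei, 2429 of the control and 5083 of the BaP lineage, where the protocol aimed at 8000 nuclei per fish. Clusters run from 1754 nuclei in cluster 0 to 69 in cluster 13, with mean depths of 684 to 1905 transcript counts per nucleus. The control lineage supplied 51.9% of cluster 0 but 10.0% of cluster 3, so control values in clusters 3, 5 and 10 to 13 rest on 14 to 71 nuclei. Names of clusters were rebuilt from marker genes, with levels in CPM (transcript counts scaled to a common library total). Of 8 radial glia markers with at least 10 CPM in cluster 9 or on average elsewhere, 6 were in cluster 9 at least 2 times their mean in the other clusters. The same held for 7 of 7 oligodendrocyte markers in cluster 6, 5 of 6 granule neuron markers in cluster 5, 5 of 6 GABAergic markers in cluster 1, and 4 of 5 oligodendrocyte progenitor markers in cluster 12. These are called radial-glia-like, oligodendrocyte-like, granule-neuron-like, GABAergic-neuron-like and oligodendrocyte-progenitor-like. The GABAergic trait is not particular to cluster 1. Its list summed to 3296 CPM there, and to 3033 CPM in cluster 2 and 2311 CPM in cluster 0, where 3 of 6 markers met the same rule in each. Clusters 7 (epithelial, fibroblast, microglia or macrophage, and muscle markers) and 8 (endothelial and erythrocyte markers) mix types and are given by number, as are the rest.

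Levels across clusters are given first, pooled over both lineages. A level is the CPM calculated from the authors' deposited tables after removal of the floor that undetected genes share. The counts come from transcript ends and are not scaled by gene length, so a level is compared between clusters of 1 gene and not between genes. Where genes of a step are ranked, or levels are summed over genes, this describes the counts only. Of the 60 members, 29 were detected in all 14 clusters and 1 (pkmyt1) in none, with 35 members detected in cluster 12 and 58 in cluster 1. A median level of 100 CPM or more was reached by 12 members, and 27 stayed under 10 CPM.

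The summed level of all members, calculated from the authors' deposited tables, was highest in the GABAergic-neuron-like cluster 1 at 6349 CPM. The radial-glia-like cluster 9 followed with 5521 CPM, then cluster 11 with 4991 CPM. It was lowest in the mixed vascular and blood cluster 8, at 2799.5 CPM, so highest and lowest differed 2.27-fold. The lowest cluster rests on how a level is taken: in the control lineage alone cluster 1 stood 3.24-fold over cluster 3. The control-lineage totals of all genes were themselves unequal, at 1154080 CPM in cluster 1, 888209 CPM in cluster 3 and 1214290 CPM in cluster 8. The ratio of 3.24 was not scaled for this, so it does not settle which cluster was lowest. With the floor left in, cluster 0 stood 2.64-fold over cluster 2. That ratio follows the floor, which was highest in cluster 0 and lowest in cluster 2, the clusters of lowest and highest mean depth. It gives no order of member levels.

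Along the pathway, most steps had 1 gene with most of the counts, and many of these were highest in cluster 1 or cluster 9. The values that follow are levels calculated from the authors' deposited tables. HK1.1, a hexokinase 1 gene, ranged from 67.6 CPM in cluster 7 to 279 CPM in cluster 1. The phosphofructokinase gene PFKP ranged from 176 CPM in the oligodendrocyte-like cluster 6 to 603 CPM in cluster 9, with 601 CPM in the granule-neuron-like cluster 5, close to the first. For gapdhs, the more abundant of the GAPDH genes, levels ran from 335 CPM in cluster 12 to 1119 CPM in cluster 1, with 979 CPM in cluster 9. Enolase eno1a reached 858 CPM in cluster 1 and 626 CPM in cluster 9, against a lowest level of 290.3 CPM in cluster 6. Pyruvate kinase pkma reached 409.9 CPM in cluster 1, and its lowest level was 126 CPM in cluster 8. These 5 genes had their lowest levels in clusters 6, 7, 8 or 12, in each of which 0 of 6 general neuronal markers reached 2 times their mean elsewhere. The same 0 of 6 was found in clusters 0, 2, 9, 11 and 13, among them the cluster with the highest PFKP level. This marker count therefore does not separate clusters of low and high level.

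The intermediate steps followed a similar range. Triosephosphate isomerase tpi1b was highest in cluster 9 (104 CPM, calculated from the authors' deposited tables) and phosphoglycerate kinase pgk1 in cluster 1 (225 CPM). Phosphoglycerate mutase pgam1a ran from 79.2 CPM in cluster 12 to 294 CPM in cluster 1 in the authors' deposited tables. Glucose-6-phosphate isomerase gpia had a median of 39.2 CPM, with a highest level of 54.7 CPM in cluster 3 and a lowest of 9.15 CPM in cluster 13. Lactate dehydrogenase was sparse, since ldha had a median of 18.4 CPM and a highest level of 45.3 CPM in cluster 10, calculated from the authors' deposited tables.

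The genes mdh1 and pdha1a also had their highest level in cluster 1. Cytosolic malate dehydrogenase mdh1 ran from 125 CPM in cluster 8 to 296 CPM in cluster 1, with 295 CPM in both cluster 2 and cluster 11, calculated from the authors' deposited tables. The pyruvate dehydrogenase subunit gene pdha1a lay between 24.2 CPM in cluster 12 and 118 CPM in cluster 1, calculated from the authors' deposited tables. Median levels of SUCLG1, OGDH, idh3b, fh and cs in the authors' deposited tables were 52.3, 27.2, 25.8, 11.9 and 8.88 CPM. With 79 counts of cs and 117 counts of fh over all nuclei, citrate synthase and fumarase could not be compared between clusters at this depth.

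Several paralogs were concentrated in 1 or 2 clusters. The aldolase C gene aldoca, with about 36 counts in all, stood at 151 CPM in cluster 11. It stood at 8.14 CPM in the next highest, cluster 6, calculated from the authors' deposited tables. Its paralog aldocb was spread over every cluster, with 261 CPM in cluster 9 and 259 CPM in cluster 1. In cluster 11, markers of Purkinje or eurydendroid neurons summed to 5581 CPM, with 3 of 8 at least 2 times their mean elsewhere. The same list summed to 3450 CPM in cluster 5 and 3167 CPM in cluster 10, where 1 and 2 of 8 met that rule. Cluster 11 also held the highest levels of pfkfb3, a regulator that drives phosphofructokinase, and of mdh1ab. For pfkfb3 the level was 264 CPM in cluster 11 and 96.1 CPM in cluster 6, against a median of 13.6 CPM, calculated from the authors' deposited tables. For mdh1ab, with about 42 counts in all, it was 75.0 CPM in cluster 11 and 50.8 CPM in cluster 13, against a median of 3.08 CPM.

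Cluster 9 stood apart for PFKP.1, a row with the same symbol stem as PFKP, at 677 CPM against 282 CPM in the next cluster (calculated from the authors' deposited tables). It also had the highest level of hexokinase hk2 (80.4 CPM, median 9.48). The GAPDH gene gapdh had 211 CPM in the mixed cluster 7 and at most 18.8 CPM in any other cluster of the authors' deposited tables. ENO2 was highest in cluster 10 (317 CPM), where 6 of 6 neuronal markers were at least 2 times their mean elsewhere, and lowest in cluster 13 (46.8 CPM). The row named eno2 was highest in cluster 4 (122 CPM) and lowest in cluster 9 (17.0 CPM). Rows that share a symbol (PFKP and PFKP.1, ENO2 and eno2, HK1 and HK1.1) may divide the reads of near-identical genes between them, and are uncertain for that reason.

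**Figure D1:**
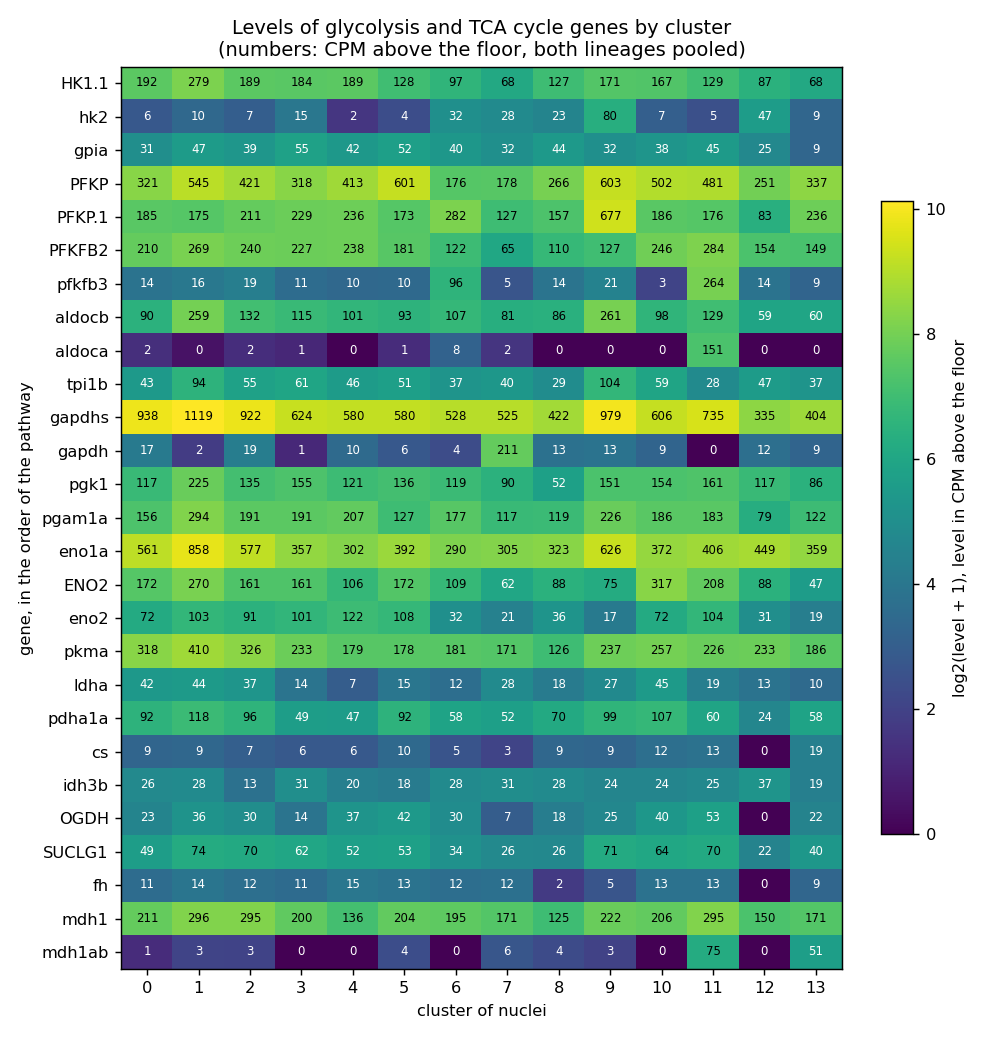
Level of 27 member genes (rows, in pathway order) in the 14 clusters (columns), both lineages pooled; numbers are CPM above the floor and colour is log2(level + 1). Many rows peak in cluster 1 or cluster 9, while aldoca, pfkfb3 and mdh1ab peak in cluster 11 and gapdh in cluster 7.

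Between lineages, 3 genes of the later part of glycolysis were lower in BaP-lineage nuclei of the largest clusters, and 1 gene of its upper part was higher in a single cluster. In the authors' deposited tables at an adjusted p under 0.05, gapdhs was lower in clusters 0, 1, 2 and 5, eno1a in clusters 0, 1 and 2, and pkma in cluster 2, while PFKP was higher in cluster 4. That makes 8 lower and 1 higher among 840 pairs of a member and a cluster, of which 707 were detected. Over all pairs of a gene and a cluster, 0.133% were called lower and 0.116% higher. None of the 20 pyruvate dehydrogenase and TCA cycle genes and none of the 6 PFKFB genes was called in any cluster, while at an unadjusted p under 0.05 there were 36 lower and 21 higher pairs, from 22 genes.

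Abundant genes are called more often, so the members were also set beside genes at 100 CPM or more. There, 1.26% of pairs were called lower and 1.38% higher in the authors' deposited tables, against 8 and 1 of 172 member pairs. By cluster, the lower share over all genes was 0.222% in cluster 0, 0.456% in cluster 1, 0.575% in cluster 2 and 0.0903% in cluster 5. Among genes at 100 CPM or more it was 2.66%, 2.6%, 5.09% and 0.921%, against 2 of 12, 2 of 15, 3 of 13 and 1 of 13 members. The higher share in cluster 4 was 0.296% of all genes and 3.65% of those at 100 CPM or more, against 1 of 13 members. Elsewhere no member was called. Over all genes, the lower share in those comparisons was 0.041% in cluster 3, 0.0903% in cluster 4, 0.0616% in cluster 6, 0.144% in cluster 7, 0.0739% in cluster 8, 0.0451% in cluster 9 and 0.0616% in cluster 10, and 0 in clusters 11 to 13. The higher share was 0.148% in cluster 0, 0.279% in cluster 1, 0.131% in cluster 2, 0.0164% in cluster 5, 0.271% in cluster 6, 0.0287% in cluster 7, 0.0616% in cluster 8, 0.0657% in cluster 9, 0.0164% in cluster 10 and 0.0041% in cluster 11, and 0 in clusters 12 and 13. Few genes of any kind were thus called in the clusters with the fewest nuclei. The clusters come from the same 6 fish, so their results are not independent of each other.

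GAPDH converts glyceraldehyde 3-phosphate and yields NADH, and gapdhs carried most of its counts, about 7869 over all nuclei against 200 of gapdh. In cluster 0, the gapdhs level calculated from the authors' deposited tables was 1169.5 CPM in the control and 688 CPM in the BaP lineage, from about 733 and 400 counts. The log2 fold change there was -0.64 (adjusted p = 2.9e-09 in the authors' deposited table). In cluster 1 the levels were 1539.9 and 983 CPM (log2 fold change -0.61, adjusted p = 1.65e-07 in the authors' deposited table). The fold changes of both clusters were thus of like size, and the counts in cluster 1, about 864 and 1706, were the highest of any member in any cluster. Cluster 2 went from 1157 to 756 CPM (-0.57, adjusted p = 1.96e-07 in the authors' deposited table). The granule-neuron-like cluster 5 went from 1027 to 518 CPM on about 78 and 283 counts, with a log2 fold change of -0.87 (adjusted p = 0.00374 in the authors' deposited table).

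In the clusters without a call, the deposited fold changes of gapdhs were below 0 in 8 of 10. The radial-glia-like cluster 9 had 1320.1 and 849.8 CPM, with a log2 fold change of -0.57 (adjusted p = 0.45 in the authors' deposited table). Cluster 4 had 759.6 and 509.8 CPM (-0.50, adjusted p = 0.235 in the authors' deposited table). Differences of a size close to those called in clusters 0 to 2 thus missed the threshold in clusters with fewer nuclei. The exceptions in direction were cluster 3 (433 and 645 CPM, log2 fold change 0.49, adjusted p = 0.898 in the authors' deposited table) and cluster 12, whose control value rests on about 1 count.

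Enolase forms phosphoenolpyruvate, the substrate of pyruvate kinase. The eno1a level, calculated from the authors' deposited tables, was 672 in the control and 441 CPM in the BaP lineage of cluster 0, 1151 and 763 CPM in cluster 1, and 747 and 458 CPM in cluster 2. The log2 fold changes were -0.46 (adjusted p = 0.00888), -0.55 (adjusted p = 4.7e-04) and -0.63 (adjusted p = 1.38e-05), in the order of the clusters in the authors' deposited tables. Among clusters with no call, cluster 5 had -0.76 (adjusted p = 0.43) and cluster 4 had -0.65 (adjusted p = 0.151) in the authors' deposited tables. Values near 0 were found in cluster 9 (-0.09) and cluster 7 (0.10), where gapdhs had -0.57 and -0.14 in the same deposited tables. Whether the genes differ there was not tested.

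Pyruvate kinase makes pyruvate and ATP, and pkma passed the threshold in 1 cluster. In cluster 2 its level, calculated from the authors' deposited table, was 400.2 CPM in the control and 274 CPM in the BaP lineage, from about 248 and 242 counts (log2 fold change -0.46, adjusted p = 0.0309). Clusters 1 and 0 had deposited log2 fold changes of -0.41 and -0.36, at adjusted p-values of 0.0832 and 0.211 in the authors' deposited tables. With p-values adjusted over all 14 tables together, the adjusted p in cluster 2 was 0.0739 and pkma was no longer called.

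These 3 genes made up 27.4% to 41.0% of the summed member level, by cluster. In cluster 1 their sum, calculated from the authors' deposited tables, was 3212 CPM in the control and 2119.8 CPM in the BaP lineage. The other 57 members summed to 3943 and 3968 CPM there. In cluster 0 the sums of the 3 were 2218 and 1383 CPM, against 2657 and 2570.1 CPM for the others. In cluster 5 the 3 genes had 1939 and 1040.2 CPM and the others 3181 and 2907 CPM. The 3 genes were picked for their lower calls, so their lower sums are in part built in by the choice. The sums were not scaled for the unequal totals of all genes in the control and BaP lineages. Those totals were 1102080 and 1011700 CPM in cluster 0, 1154080 and 1063120 CPM in cluster 1, and 1193000 and 1118890 CPM in cluster 5. The direction of small differences in the other 57 members is therefore not settled.

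**Figure D2:**
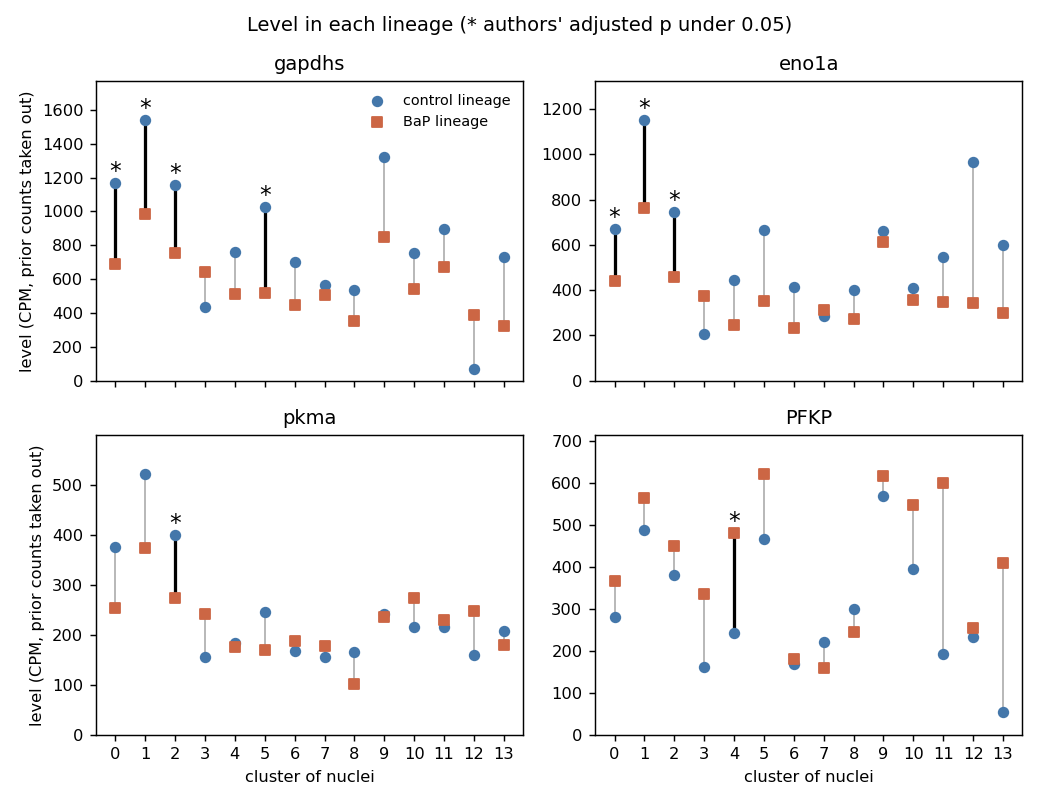
Level of gapdhs, eno1a, pkma and PFKP (CPM with prior counts taken out) in the control lineage (circles) and the BaP lineage (squares) of each cluster; asterisks and black lines mark an authors' adjusted p under 0.05. The called pairs of gapdhs, eno1a and pkma lie lower in the BaP lineage, and the called pair of PFKP, in cluster 4, lies higher.

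Other transcripts also differed between lineages in these clusters. Of the 13 mitochondrially encoded genes, all were called lower in at least 1 cluster, 96 calls in all and none higher in the authors' deposited tables. Their median log2 fold change was -0.56, -1.16, -0.98 and -0.95 in clusters 0, 1, 2 and 5. Their share of transcripts, calculated from the same deposited tables, was 25.9% in the control and 18.8% in the BaP lineage of cluster 0, and 17.5% and 8.26% in cluster 1. With prior counts taken out, the log2 difference of gapdhs in clusters 0, 1, 2 and 5 was -0.77, -0.65, -0.61 and -0.99, calculated from the authors' deposited tables. With lineages also scaled to equal totals of all transcripts, it was -0.64, -0.53, -0.42 and -0.89. With mitochondrially encoded genes left out of those totals, it was -0.77, -0.68, -0.55 and -1.05.

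Markers of other cell types were called in clusters 0, 1 and 2 as well, but not in cluster 5. The hemoglobin gene hbbe2 was lower in clusters 0 and 1 (log2 fold change -0.92 and -0.89 in the authors' deposited tables), and the astroglial glutamine synthetase gene glula was lower in clusters 0 and 2 (-0.58 and -0.73). Also lower were the myelin gene mbpb in cluster 2 (-0.90), the antigen presentation gene cd74a in cluster 1 (-0.45) and the heme synthesis gene alas2 in cluster 0 (-0.30), while the collagen gene col1a2 in cluster 0 (0.26) and the keratin gene krt5 in cluster 2 (0.50) were higher in the authors' deposited tables. Summed over the matched list, erythrocyte markers had 1379 CPM in the control and 622 CPM in the BaP lineage of cluster 0, and 785 and 389.95 CPM in cluster 1, calculated from the authors' deposited tables. The radial glia list summed to 1576 and 1325 CPM in cluster 0 and to 2509 and 1867 CPM in cluster 2, where the oligodendrocyte list summed to 671 and 364 CPM. Of these lists, 2 of 4 erythrocyte and 1 of 9 glial markers were called lower in cluster 0. In cluster 5 the erythrocyte list summed to 927 CPM in the control and 932 CPM in the BaP lineage, and the radial glia list to 1912 and 1247 CPM. The part of mitochondrial, blood, glial or other transcripts in the lower gapdhs, eno1a and pkma was not tested.

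**Figure D3:**
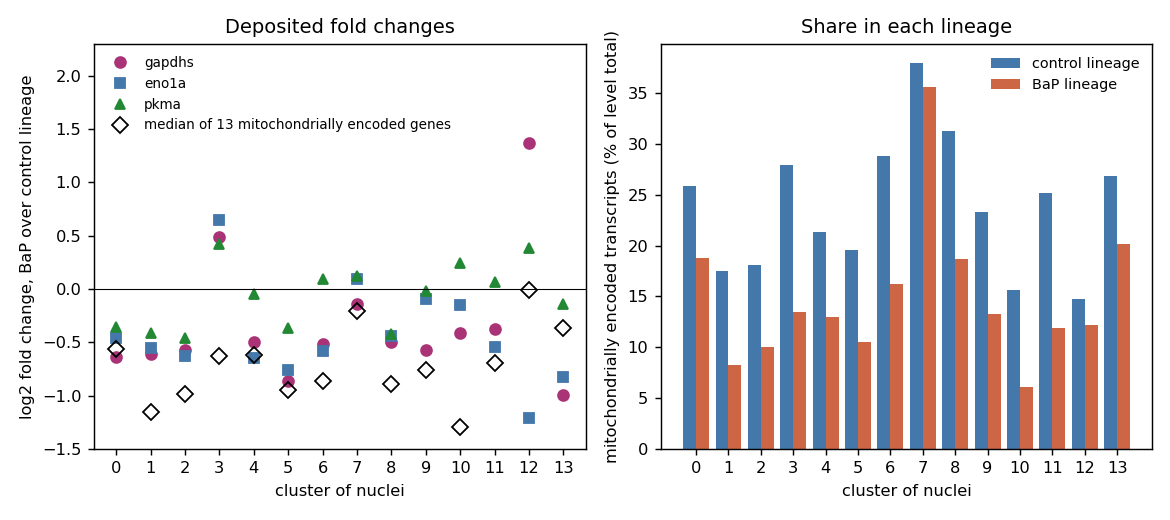
Left, deposited log2 fold change (BaP over control lineage) of gapdhs, eno1a and pkma and the median of 13 mitochondrially encoded genes in each cluster; right, share of the level total held by mitochondrially encoded genes (%), bars by lineage. The mitochondrial median is below 0 in all 14 clusters, from -0.01 in cluster 12 to -1.29 in cluster 10, while the 3 enzymes lie above 0 in cluster 3.

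Phosphofructokinase catalyses the committed step of glycolysis, and its platelet-type gene PFKP was higher in the BaP lineage of cluster 4. The level there, calculated from the authors' deposited table, was 243 CPM in the control and 479.5 CPM in the BaP lineage, from about 48 and 241 counts. The log2 fold change was 0.76 (adjusted p = 0.00519 in the authors' deposited table). Across the other clusters the PFKP fold change was above 0 in 11 of 13, and in clusters 7 and 8 it was -0.33 and -0.22 in the authors' deposited tables, with no call. Cluster 3 had the same fold change of 0.76 without a call (adjusted p = 0.36 in the authors' deposited table), on about 15 control counts. The neuronal genes RBFOX3 and SLC17A6 rose in cluster 4 as well, the first by 0.60 and the second, a vesicular glutamate transporter gene, by 0.83 on the log2 scale of the authors' deposited table, and their part in the PFKP value was not tested.

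PFKP.1 had a fold change below 0 in 11 of the 14 tables the authors deposited. In cluster 4 its log2 fold change was -0.27, and in clusters 5 and 9 it was -0.64 and -0.42 in the authors' deposited tables, all without a call. In cluster 9, where it was most abundant, the level was 853 CPM in the control and 610.4 CPM in the BaP lineage, calculated from the authors' deposited table. If reads of PFKP and PFKP.1 cannot be told apart by counting, neither value stands alone, and the difference between the rows was not tested. The muscle and liver types pfkma, pfkmb and PFKL had median levels of at most 5.93 CPM and no call.

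Of the members with no call, the smallest p-values belonged to a GAPDH, a pyruvate dehydrogenase, a hexokinase, an enolase and a PFKFB gene. In the mixed cluster 7, gapdh had 437 CPM in the control and 107 CPM in the BaP lineage, from about 77 and 41 counts, with a log2 fold change of -1.43 (adjusted p = 0.0857 in the authors' deposited table). In that cluster hbbe2 was lower by more (-1.73) and col1a2 was higher (1.89) in the same deposited table. The microglia or macrophage list summed to 1397 CPM in the control and 673 CPM in the BaP lineage there, with no call. The fibroblast list summed to 128 and 561 CPM, calculated from the same deposited table. The part of these cell types in the gapdh value was not tested. Hexokinase HK1.1 in cluster 0 had 236 and 145 CPM (log2 fold change -0.35, adjusted p = 0.139 in the authors' deposited table), while in cluster 1 it had 290.0 and 275 CPM. ENO2 in the oligodendrocyte-like cluster 6 had 217 and 59.9 CPM on about 26 and 16 counts (-0.87, adjusted p = 0.177 in the authors' deposited table). The neuron list there summed to 3792 CPM in the control and 2620 CPM in the BaP lineage, with no call. The oligodendrocyte list summed to 8087 and 13134 CPM, and its genes cldn19, mag and mpz were called higher, as was glula. Their part in the ENO2 value was not tested. PFKFB2, which encodes a kinase and phosphatase of fructose 2,6-bisphosphate, had about 3 control counts against 45 in cluster 11 (log2 fold change 1.66, adjusted p = 0.687 in the authors' deposited table). Without a call, such differences are left undecided.

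The remaining steps of glycolysis showed no call. In the 3 largest clusters, aldocb, pgk1 and pgam1a had deposited log2 fold changes between -0.05 (pgam1a in cluster 2) and 0.36 (aldocb in cluster 2) in the authors' deposited tables. The pgk1 level in cluster 1 was 217 CPM in the control and 227 CPM in the BaP lineage, calculated from the authors' deposited table. That of pgam1a was 283 and 298 CPM. Phosphoglycerate kinase and mutase act between GAPDH and enolase in the pathway, and their values stand beside those of gapdhs and eno1a without a test of the difference. Triosephosphate isomerase tpi1b had -0.44 in cluster 2 and 0.67 in cluster 9, at adjusted p-values of 0.303 and 1 in the tables the authors deposited.

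Among the 20 TCA cycle and pyruvate dehydrogenase genes, no value in the largest clusters passed the threshold. The cytosolic malate dehydrogenase gene mdh1 had log2 fold changes of 0.14, 0.31 and 0.08 for clusters 0, 1 and 2 in the tables the authors deposited. Its adjusted p was 0.658 for cluster 1. The largest shift of an enzyme of the cycle in cluster 1 was that of sucla2, a subunit of succinate-CoA ligase, with 116 and 65.4 CPM (log2 fold change -0.46, adjusted p = 0.145 in the authors' deposited table). The pyruvate dehydrogenase subunit gene pdha1b had a log2 fold change of -0.52 in cluster 2 (adjusted p = 0.11 in the authors' deposited table). In cluster 5 pdha1b had 162 and 38.7 CPM on about 12 and 21 counts (-0.92, adjusted p = 0.31 in the authors' deposited table). The pdha1b fold change was below 0 in 11 of 14 clusters, without a call. Its paralog pdha1a had no p under 0.05 in any cluster.

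In cluster 3, 8 members had an unadjusted p under 0.05, all with a higher value in the BaP lineage. The list held HK1.1, PFKP, pgam1a, eno1a, mdh1, gapdhs, PFKP.1 and tpi1b, and none was called (the smallest adjusted p was 0.273, of HK1.1, in the authors' deposited table). This cluster had 71 control and 638 BaP nuclei, and 0.3% of all its genes and 3.54% of those at 100 CPM or more were called higher. Genes at 100 CPM or more had a median log2 fold change of 0.49 there and members of that level 0.56, calculated from the authors' deposited table. All detected genes had a median of 0.08 and the mitochondrially encoded genes one of -0.63. The level totals of the lineages differed by 0.38 on the log2 scale. With prior counts taken out and totals made equal, the log2 difference of gapdhs was 0.20. With mitochondrially encoded genes left out of the totals it was -0.07, so the direction of gapdhs in cluster 3 depended on the scaling. That was not so for every listed member, since HK1.1 had 0.96 and eno1a 0.22 under the same scaling. In that cluster the neuronal gene syt1a and the glial gene slc1a2b rose as well (1.08 and 1.21 in the authors' deposited table), and their part was not tested.

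The median over all detected members lay near that of all detected genes in the largest clusters. In clusters 0, 1 and 2 the median log2 fold change of the detected members was -0.002, 0.001 and 0.024, beside 0.001, 0.012 and -0.005 for all detected genes, calculated from the authors' deposited tables. Over the 14 clusters the members' median lay below that of detected genes in 7. The highest medians, 0.26 and 0.28, were those of clusters 11 and 12, where all detected genes had 0.14 and 0.15. At 100 CPM or more, members in clusters 0, 1 and 2 had medians of -0.12, -0.06 and -0.05. All genes of that level had 0.04, 0.09 and 0.02 there, calculated from the authors' deposited tables. Members of that level lay above the genes of that level in clusters 3 and 9 to 12, and below them in the other clusters. No test was made of any of these medians.

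**Figure D4:**
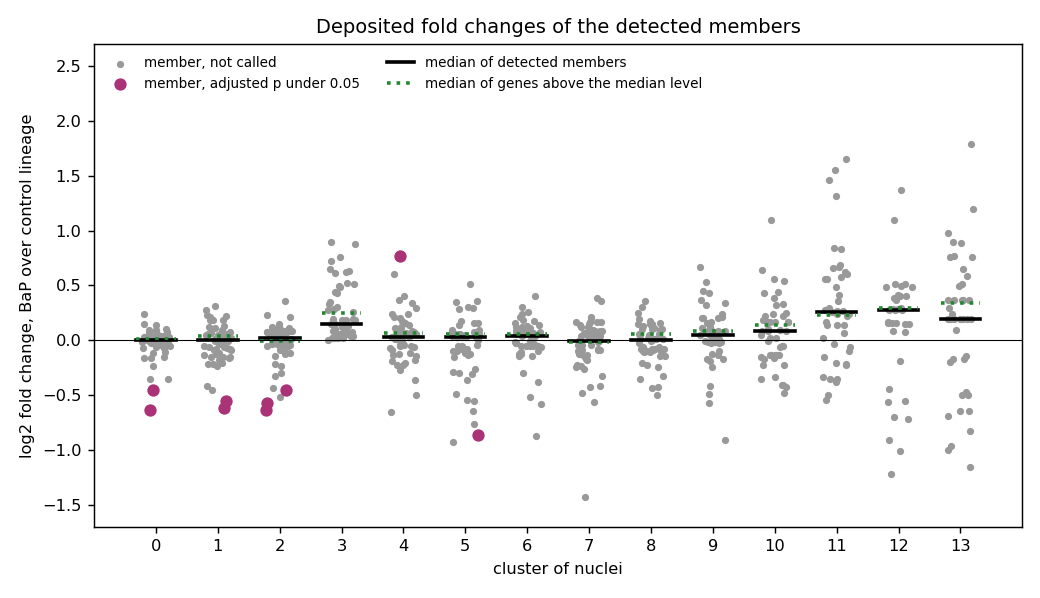
Deposited log2 fold change (BaP over control lineage) of each detected member in each cluster (points), with the median of detected members (solid line) and of detected genes above the median level (dotted line). The 8 lower calls sit in clusters 0, 1, 2 and 5 and the 1 higher call in cluster 4. Both medians lie near 0 in clusters 0, 1 and 2, and above 0 in cluster 3 (0.15 for members and 0.25 for genes).

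Genes around the pathway were counted from lists. Of 10 matched glucose and lactate transporters, 22 genes of the pentose phosphate and glycogen pathways, 21 other TCA cycle and anaplerotic genes, 5 creatine kinases and 6 targets of the aryl hydrocarbon receptor, none was called in the authors' deposited tables. Over all pairs of a gene and a cluster, 0.133% were called lower and 0.116% higher, so short lists without a call decide little. Of the 6 receptor targets, 1 was detected in cluster 6 and in each of clusters 9 to 12. Among 25 other enzymes and regulators, pcxb rose in the radial-glia-like cluster 9. This gene encodes pyruvate carboxylase, which makes oxaloacetate from pyruvate and in the mammalian brain is an astroglial enzyme. Its level in cluster 9 was 166 CPM in the control and 542 CPM in the BaP lineage, from about 18 and 152 counts (log2 fold change 1.23, adjusted p = 0.0155 in the authors' deposited table). In that cluster, 0.0657% of all genes and 0.836% of genes at 100 CPM or more were called higher. The highest pcxb level was that of cluster 13, at 978 CPM pooled over lineages.

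Of 11 hypoxia response genes, 3 were called, in both directions. EGLN1, an oxygen sensor that marks HIF for decay, rose in cluster 2 (33.3 and 83.7 CPM, log2 fold change 0.60, adjusted p = 0.0165) and in cluster 8 (18.9 and 141 CPM, log2 fold change 1.08, adjusted p = 0.0057) of the authors' deposited tables. The control and BaP lineages had about 21 and 74 counts of EGLN1 in cluster 2, and about 4 and 44 in cluster 8. The stress gene ddit4 fell in cluster 2 (161 and 77.9 CPM, log2 fold change -0.66, adjusted p = 0.0103 in the authors' deposited table). The mitophagy gene bnip3la fell in cluster 1 (265 and 169 CPM, log2 fold change -0.48, adjusted p = 0.048 in the authors' deposited table). The higher share of all genes was 0.131% in cluster 2 and 0.0616% in cluster 8. The lower share of all genes was 0.575% in cluster 2 and 0.456% in cluster 1. Among genes at 100 CPM or more, as ddit4 and bnip3la were there, it was 5.09% and 2.6%.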

How the data were processed

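Single-nucleus libraries of 6 brains were processed with Cell Ranger, per the submitters' processing notes, then aggregated, and the lineages were compared within clusters, per the design text. How nuclei were filtered and clustered, how doublets were treated and which test was run is not given in the sources used here. The authors deposited 14 tables of 24365 genes. Their columns, per the file headers, are a log2 fold change, a mean level as log2 CPM, a p-value and an adjusted p-value. Benjamini-Hochberg adjustment over all genes of a table returned the deposited adjusted p-values with a largest difference of 1.7e-13. BaP over control lineage was taken as the direction of the fold change, since the tables' names code control as 0 and treated as 1. A gene was called at an adjusted p under 0.05.

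The deposited log2 values carry a prior count, so fold changes of sparse genes are understated. The numbers of nuclei and the counts of each lineage were worked out from the steps of the lowest values, with prior counts of 2 for the mean level and 0.125 for the fold change, and then taken out. The arithmetic of these steps was run on simulated data of clusters 4 and 13 with 24365 genes each, and it gave back the numbers of nuclei put in. The direction held in the counts was given back for 182 of 182 and 40 of 40 changed genes. That checks the arithmetic only, and whether the steps hold for the deposited tables was not tested. Changed genes too sparse in either lineage (under 3 counts) were left out of the 182 and 40. Simulated data cannot show whether the deposited tables carry prior counts of these sizes, so that remains an assumption. No spread between fish, depth per fish or interval can be had from these tables, and counts cover counting error only. A difference from the study's own cluster names may come from names rebuilt here.

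Named genes were every called member, the 5 uncalled members of smallest p, the most abundant member of each step and every called gene of the lists (some genes that this takes are not reported here), with others given as values beside a result, among them genes chosen after their values were seen. Members and lists were chosen with earlier results of these data known. The threshold, the adjustment, the prior count, the summary and the scaling were varied, and 4 alternatives were added after seeing the data. Of the 60 symbols, 27 were matched in a RefSeq gene table of another build (ASM223467v1), so no coordinates are given. Python 3.11, numpy 2.4.6 and pandas 2.3.3 were used.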

Additional observations from a re-analysis of the deposited data

How the results depend on the processing

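The 8 lower calls, 1 higher call and 4 called genes became 36, 21 and 22 at an unadjusted p under 0.05. Under the other settings tried (adjusted p under 0.1 or 0.01, detected genes only, a log2 fold change of at least 0.5, all 14 tables adjusted together, without members of other function, without cluster 0) there were 6 to 10 lower calls and 1 higher call. The call of pkma in cluster 2 was lost at an adjusted p under 0.01 (0.0309) and over all tables together (0.0739); the second has a larger set of tests by construction. The members' median lay below that of detected genes in 7 clusters, and the mean in 12. With the prior count taken out (at least 3 counts in each lineage) the median lay below in 8 clusters. With members and genes both above the median level it lay below in 9. The median of all detected members lay below that of genes above the median level in 11, which compares sets of unlike level. The cause was not tested. The ratio of highest to lowest summed level moved from 2.27 to 3.24 in the control lineage, without scaling to equal totals of all genes. With the floor left in it was 2.64, a value that follows the floor and the depth of the clusters and not the members. All 9 called fold changes kept their sign with the prior count taken out and under both scalings to equal totals; scaling to equal totals shifts all genes by up to 0.38 (log2, cluster 3). No paired analysis was possible because the tables hold no value of a single fish, so the fit with a replicate block and leaving out each library were not run. Depth limits the clusters with few control nuclei (14 to 71 in clusters 3, 5 and 10 to 13), where several members rest on 0 to 3 control counts.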
